A study of Homo sapiens with 3 samples.

Results

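The 10 genes described here encode transcription factors and cofactors that direct red cell and megakaryocyte development: GATA1, GATA2, KLF1, TAL1, LMO2, NFE2, ZFPM1, LDB1, GFI1B and RUNX1. They were chosen by name, as known regulators of these lineages, and their identifiers were matched to symbols of GENCODE release 29. All 10 were found among the 58735 genes of the deposited tables, and all 10 averaged at least 1 FPKM (reads scaled to exon length and to library size), the level required for testing. RNA was sequenced from cells whose label is KG1a, an established line from acute myeloid leukaemia, in 2 libraries of cells that received a lentivirus with a short hairpin RNA against TRAF7 (TRAF7 knockdown 1 and 2) and 1 library of cells that received a control hairpin virus (control). A single batch label covers the 3 libraries. The control has a wild-type genotype label and the other 2 TRAF7 knockdown, and the labels state neither whether the knockdown libraries carry the same hairpin nor whether they come from separate cultures. Their titles are shTRAF7-1 and shTRAF7-2, so the spread between them may include a difference between hairpins. Assigned reads came to 16221721 in knockdown 1, 16254461 in knockdown 2 and 16014485 in the control.

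The targeted gene was checked first. TRAF7, an E3 ubiquitin ligase, was at 15.6 FPKM in knockdown 1 and 18.3 FPKM in knockdown 2, against 46.5 FPKM in the control, which is 33.6% and 39.4% of the control level. The labelled cell type was then set against its markers, and its defining surface antigen was near absent. CD34, the antigen for which KG1a is best known, had 1 read in knockdown 1, 10 reads in knockdown 2 and 0 reads in the control (0.00697, 0.0667 and 0 FPKM). Of 12 stem and progenitor surface genes, 4 averaged at least 1 FPKM (PTPRC, ENG, CD33 and SPN), with PROM1 and FLT3 at 0 in all 3 libraries. By contrast 40 of 50 red cell genes averaged at least 1 FPKM, and the Rh-associated glycoprotein gene RHAG stood at 228 and 229 FPKM in the knockdown libraries and at 208 FPKM in the control. The levels of the erythroid factors below are therefore those of cells labelled KG1a that carry little CD34 transcript. Why the label and the markers differ was not tested.

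GATA1 and GATA2 are zinc-finger proteins that bind GATA sequences. GATA2 acts in stem and progenitor cells and GATA1 in maturing red cells and megakaryocytes, where it takes over many of the sites GATA2 held. TAL1 binds E-box sequences with an E protein, and LMO2 and LDB1 bridge it to GATA1 in a complex that occupies red cell genes. KLF1 activates adult globin and other red cell genes through CACCC sequences, and NFE2 pairs with small MAF proteins at globin and platelet genes. ZFPM1 (also called FOG1) is the cofactor of GATA1, GFI1B is a zinc-finger repressor, and RUNX1 acts in stem cells and megakaryocytes.

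Since many of these factors bind near one another's genes, the sequence before their start sites was searched for GATA and CACCC letters. The RefSeq promoter table (GRCh38.p14) held 11 start sites for 8 of the 10 genes; LMO2 and NFE2 had none. The 250 bases before each start were searched on both strands for the letters GATA preceded by A or T and followed by A or G. The CACCC search used CCACNCCC, where N is any base. The E-box search used CAGNTG and the NFE2 search TGANTCA. The RUNX search used TGTGGT and also TGCGGT. In the windows shown no match overlaps another. GATA letters were present at 3 of the 11 starts, 1 each of KLF1, TAL1 and GFI1B, and at 22.3% of all 35116 promoters in the table. CACCC letters were present at 6 of 11 starts and at 15.7% of all promoters. E-box letters were present at 4 of 11 (42.5% of all), and RUNX and NFE2 letters at 1 each, both of them starts of TAL1 (16.3% and 6.57% of all). The 3 windows with GATA letters are shown because GATA1 and GATA2 read such letters. A count of 3 of 11 is near the share of all promoters and is not read as a trait of these genes. The other listed start of TAL1 and of GFI1B had no GATA letters in its 250 bases. GATA1 and GATA2 are shown beside them because these 2 paralogues stood on opposite sides of the control. Capitals mark GATA and CACCC letters, and each sequence reads 5′ to 3′ on the gene's strand.
KLF1 (chr19:12887202-12887451, minus strand): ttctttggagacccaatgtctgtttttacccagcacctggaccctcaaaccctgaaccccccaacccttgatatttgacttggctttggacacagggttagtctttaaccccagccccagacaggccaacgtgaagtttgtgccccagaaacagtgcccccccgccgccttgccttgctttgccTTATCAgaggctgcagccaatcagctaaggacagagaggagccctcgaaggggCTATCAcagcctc
TAL1 (chr1:47232336-47232585, minus strand): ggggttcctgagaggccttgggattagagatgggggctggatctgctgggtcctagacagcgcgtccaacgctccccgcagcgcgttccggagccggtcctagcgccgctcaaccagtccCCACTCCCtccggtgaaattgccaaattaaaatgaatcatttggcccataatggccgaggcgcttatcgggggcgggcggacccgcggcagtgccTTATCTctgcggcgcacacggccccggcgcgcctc
GFI1B (chr9:132978444-132978693, plus strand): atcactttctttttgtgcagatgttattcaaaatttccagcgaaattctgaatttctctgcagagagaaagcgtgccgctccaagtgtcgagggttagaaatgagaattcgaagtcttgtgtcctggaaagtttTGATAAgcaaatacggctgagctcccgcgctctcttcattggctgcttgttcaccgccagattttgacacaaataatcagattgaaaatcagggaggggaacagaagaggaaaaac
GATA1 (chrX:48786340-48786589, plus strand): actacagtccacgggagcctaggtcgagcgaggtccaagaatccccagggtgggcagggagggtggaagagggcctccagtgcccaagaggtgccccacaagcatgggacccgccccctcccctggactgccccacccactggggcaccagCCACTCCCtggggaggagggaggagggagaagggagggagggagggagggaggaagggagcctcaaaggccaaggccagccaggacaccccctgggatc
GATA2 (chr3:128493202-128493451, minus strand): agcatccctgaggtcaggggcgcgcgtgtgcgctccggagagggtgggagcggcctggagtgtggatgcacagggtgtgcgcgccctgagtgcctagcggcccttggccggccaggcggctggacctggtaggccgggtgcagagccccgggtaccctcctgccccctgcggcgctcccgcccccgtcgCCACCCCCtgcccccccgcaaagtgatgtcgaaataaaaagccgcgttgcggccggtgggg
In KLF1 the GATA letters began 66 and 13 bases before the start, in TAL1 35 bases and in GFI1B 116 bases before it. A match is a run of letters and not a measured binding site.

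The factors spanned a 36.2-fold range of FPKM, with GATA1 at the top and RUNX1 at the bottom in every library. By mean FPKM over the 3 libraries, which is scaled to exon length, the order was GATA1, LDB1, KLF1, NFE2, GATA2, LMO2, TAL1, GFI1B, ZFPM1 and RUNX1. The length counts every annotated exon of a gene, 1500 bases for GATA1 and 15574 for RUNX1. Annotated exons that the cells do not use lower the FPKM, so the order rests on this choice of length. By reads GATA2 was above GATA1 in knockdown 1 and 2 (3143 and 3536, against 2439 and 2819). In the control it was below (3050, against 3254). GATA1 averaged 116.2 FPKM, above 97.3% of protein-coding genes tested, and RUNX1 3.21 FPKM, above 22.4% of them. Of the 9 neighbouring pairs in this order, 3 had ranges that overlapped over the libraries and so did not differ beyond their spread. These were LDB1 and KLF1, KLF1 and NFE2, and GFI1B and ZFPM1. The other 6 steps held in all 3 libraries, with 95% counting intervals that did not touch.

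**Figure D1:**
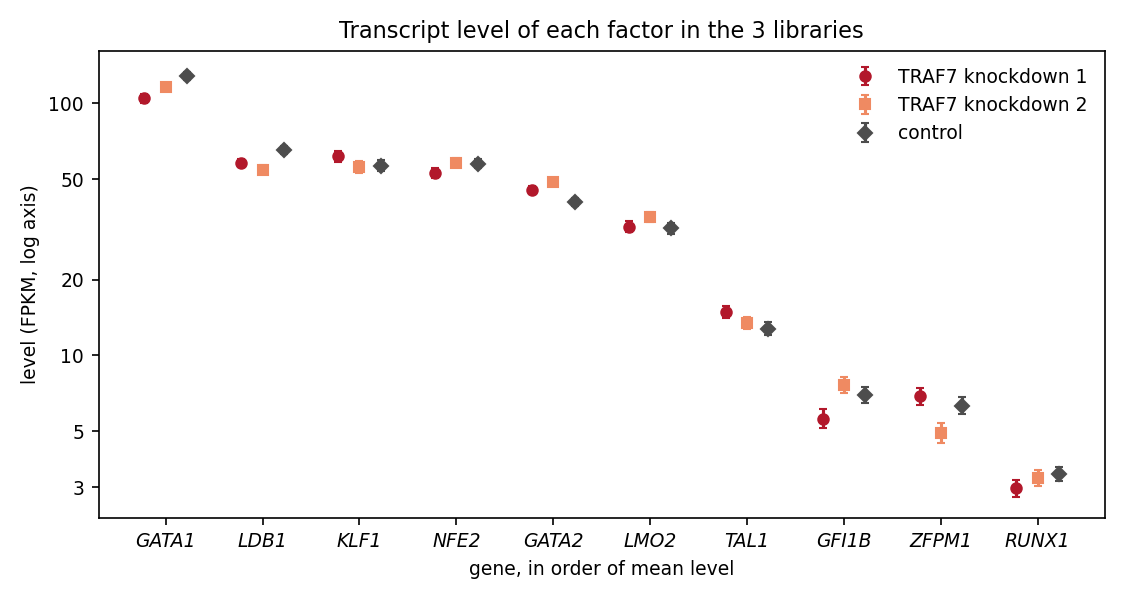
FPKM (log axis) of each factor in TRAF7 knockdown 1, TRAF7 knockdown 2 and control, with exact 95% Poisson intervals of the reads. GATA1 lies above all others at 104.5 to 128.5 FPKM, a middle group from LDB1 to LMO2 at 31.9 to 65.5 FPKM, and RUNX1 lowest at 2.97 to 3.38 FPKM.

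No factor passed the test of the knockdown against the control. By limma on log2(FPKM + 1) with Benjamini-Hochberg adjustment over all 12640 genes tested, 0 of the 10 were called, as were 0% of all genes, and adjusted p ran from 0.687 to 0.948. At an unadjusted p under 0.05 there were 0 of 10, against 9.19% of all genes. After quantile normalization 2 of 10 passed this unadjusted threshold, LDB1 and GATA1, against 7.6% of all genes. The limma adjusted p of both was 0.649 in that fit. When the reads behind the FPKM values were recovered and tested with limma-voom, 0 of 10 were called (adjusted p 0.726 to 0.959), against 0.865% of 15034 genes, 0.206% of them higher and 0.659% lower. Its unadjusted p was under 0.05 for 0 of 10, against 12.1% of all genes. TRAF7 itself, with a fitted log2 fold change of −1.41, was not called by limma (adjusted p = 0.274). It was called by limma-voom (adjusted p = 2.69e-05). The lack of limma calls among the 10 therefore does not show that they were unchanged. Fitted log2 fold changes of the 10 ran from −0.22 to 0.21 with standard errors of 0.15 to 0.23, and levels in single knockdown libraries from 77.9% to 120.4% of the control. The fitted 95% intervals of all 10 lay within 2-fold, from 0.631 times to 1.54 times the control, which is the precision that 1 control library gave. Spread was estimated from the knockdown pair alone, with 1 residual degree of freedom, and moderated across genes, and the control was assumed to have the same spread. The p-values measure the spread between these libraries, which may be technical. In RNA from whole cultures, fewer cells of a type and less RNA per cell cannot be told apart.

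**Figure D2:**
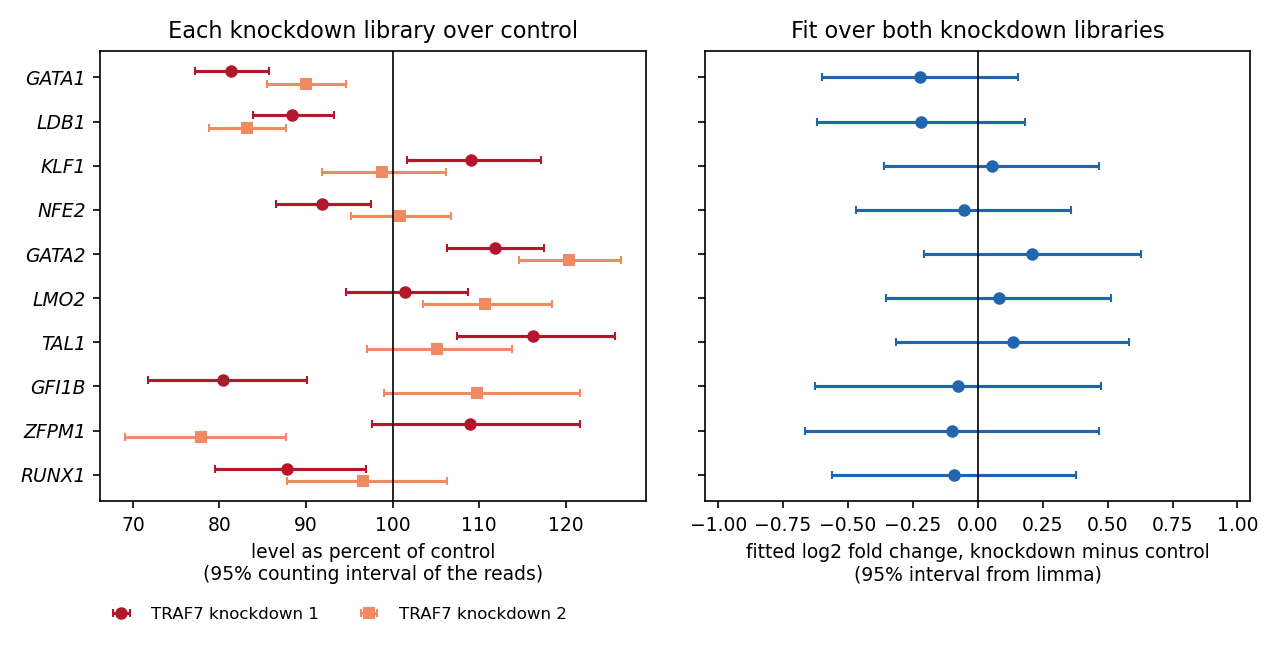
Left, level in TRAF7 knockdown 1 and 2 as percent of the control for each factor, with exact 95% counting intervals; right, the fitted log2 fold change (knockdown minus control, log2(FPKM + 1) scale) with its 95% limma interval. GATA1 and LDB1 lie below the control in both knockdown libraries and GATA2 above it, and all 10 fitted intervals include 0.

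GATA1 was lower in both knockdown libraries. The gene (ENSG00000102145, chromosome X, positions 48786554 to 48794311, plus strand, GRCh38) was at 104.5 FPKM in knockdown 1 and 115.6 FPKM in knockdown 2, against 128.5 FPKM in the control, from 2439, 2819 and 3254 reads. The control lay above both knockdown libraries, at 81.3% (95% counting interval 77.1 to 85.7) and 89.9% (85.5 to 94.6) of its level. The fitted log2 fold change was −0.22 ± 0.15 (SE; limma adjusted p = 0.687), and it ran from −0.47 to −0.15 over the alternatives. GATA2 (ENSG00000179348, chromosome 3, 128479427 to 128493185, minus strand) was at 45.3 and 48.8 FPKM in the knockdown libraries and at 40.5 FPKM in the control. Here the control lay below both, which stood at 111.8% (106.3 to 117.5) and 120.4% (114.6 to 126.4) of it, with a fitted log2 fold change of 0.21 ± 0.17 (SE; limma adjusted p = 0.728). That value came to 0.11 under scaling to all assigned reads and to 0.019 after quantile normalization.

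The balance of GATA1 to GATA2, which no scaling of a whole library by a single factor can alter, was lower in the knockdown libraries. GATA1 over GATA2 was 2.31 in knockdown 1 (95% counting interval 2.19 to 2.43) and 2.37 in knockdown 2 (2.25 to 2.49), against 3.17 in the control (3.02 to 3.33). The knockdown libraries overlapped each other and lay apart from the control. The size of the ratio depends on the exon lengths used, which are the same in every library. This ratio was chosen after its values were seen, as the pair with the largest shift common to both knockdown libraries among the 45 pairs of factors. Of the 45 pairs, 10 (22.2%) had counting intervals in both knockdown libraries apart from that of the control on the same side. All 10 involved GATA1, GATA2 or LDB1, which each lay beyond counting error of the control on the same side in both knockdown libraries. The pairs and the single genes rest on the same reads. Of all pairs of the 5504 genes with at least the mean reads of the lowest factor, 35.9% had intervals apart in this way. A shift of this kind between 2 genes was therefore common in these libraries.

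**Figure D3:**
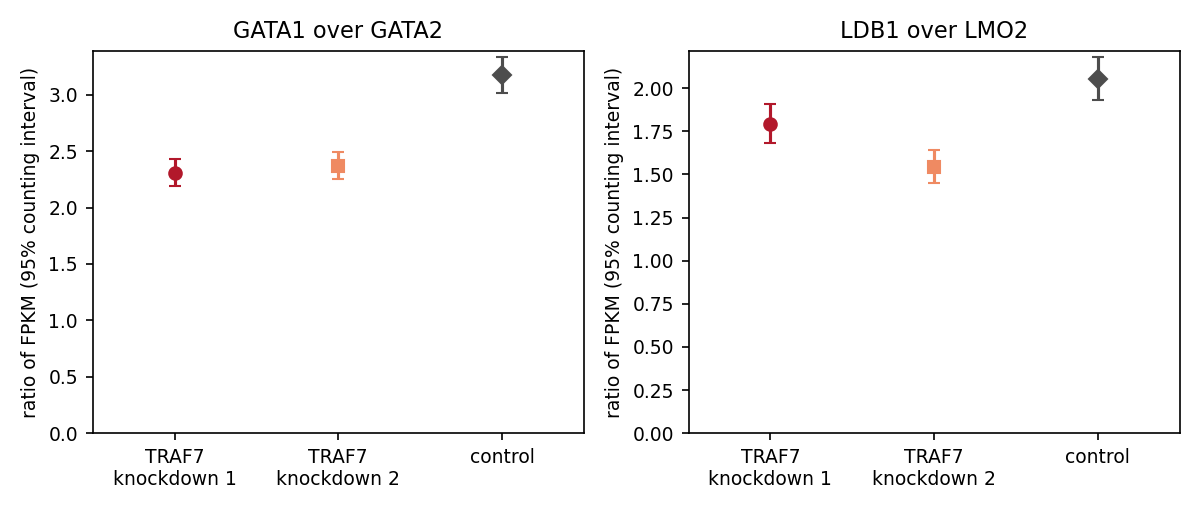
Ratio of FPKM between 2 factors in each library, with 95% counting intervals, GATA1 over GATA2 at left and LDB1 over LMO2 at right. GATA1 over GATA2 is 2.31 and 2.37 in the knockdown libraries and 3.17 in the control; LDB1 over LMO2 is 1.79 and 1.54 in the knockdown libraries and 2.05 in the control.

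Counting error alone did not describe the spread between libraries. Both comparisons below share the 1 control library, so an unusual value there moves them together. The counting interval of the ratio to the control excluded 100% for 8 of 10 factors in knockdown 1 and 5 of 10 in knockdown 2, against 57.5% and 47.1% of all genes. It did so on the same side in both for 3 of 10 (GATA1 and LDB1 below, GATA2 above), against 32.8% of all genes. Between knockdown 1 and knockdown 2, which carry the same treatment label, it excluded 100% for 9 of 10, against 46.8% of all genes. Each of the 10 averaged at least 598.7 reads, a level reached by 5504 of the 12640 genes. Counting intervals narrow as reads rise, so the shares of all genes above are not matched to the 10 in depth. As deposited, 3 of 10 were higher in both knockdown libraries (GATA2, LMO2 and TAL1), against 42.5% of all genes, and 3 lower in both (GATA1, LDB1 and RUNX1), against 30.8%. Scaling to all assigned reads turned these counts into 1 higher and 6 lower. Quantile normalization gave 1 higher and 4 lower, and median-of-ratios rescaling 2 higher and 4 lower. In the deposited values the control lay outside the knockdown pair for 6 of 10, against 73.3% of all genes. None of the factors, 0 of 10, was at least 2-fold away in both, against 0.775% of all genes. The median log2 fold change of the 10 was −0.07, beside 0.04 for all genes tested.

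For ZFPM1 and GFI1B, as for KLF1 and NFE2, the control lay between the knockdown libraries. At these genes the knockdown libraries therefore differed more from each other than from the control. ZFPM1 (ENSG00000179588, chromosome 16, 88453317 to 88537016, plus strand) was at 6.89 FPKM in knockdown 1 and 4.92 FPKM in knockdown 2, on either side of 6.32 FPKM in the control. GFI1B (ENSG00000165702, chromosome 9, 132944000 to 132991687, plus strand) had the opposite order, at 5.61 and 7.66 FPKM in knockdown 1 and 2 and 6.98 FPKM in the control. Knockdown 1 stood at 140.0% of knockdown 2 for ZFPM1 (124.3 to 157.7) and at 73.3% for GFI1B (65.5 to 82.0), the widest gaps between the knockdown libraries among the 10. Their fitted log2 fold changes were −0.10 ± 0.23 and −0.08 ± 0.22 (SE), and neither passed. GFI1B shares 349 exon bases with TSC1 on the other strand, and the sources used here do not say whether counting used the strand, so some of its reads may belong to TSC1.

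Among the bridging complex, LDB1 was lower in both knockdown libraries and its partners TAL1 and LMO2 were not. LDB1 (ENSG00000198728, chromosome 10, 102107560 to 102120453, minus strand), which encodes the protein that joins complexes into dimers and loops, was at 57.9 and 54.4 FPKM in the knockdown libraries and at 65.5 FPKM in the control. That is 88.4% (83.8 to 93.2) and 83.2% (78.8 to 87.7) of the control, with a fitted log2 fold change of −0.22 ± 0.16 (SE; limma adjusted p = 0.712), which came to −0.44 after quantile normalization. LMO2 (ENSG00000135363, chromosome 11, 33858576 to 33892289, minus strand) was at 32.3 and 35.3 FPKM in the knockdown libraries and 31.9 FPKM in the control, and only knockdown 2 lay beyond counting error of the control. TAL1 (ENSG00000162367, chromosome 1, 47216290 to 47232220, minus strand) was at 14.9 and 13.4 FPKM in the knockdown libraries and 12.8 FPKM in the control, and only knockdown 1 lay beyond counting error. Fitted log2 fold changes were 0.08 ± 0.17 for LMO2 and 0.13 ± 0.18 for TAL1 (SE), and that of LMO2 changed sign under quantile normalization (−0.092) and scaling to all assigned reads (−0.022). LDB1 over LMO2, a pair given because the proteins bind each other directly, was 1.79 and 1.54 in the knockdown libraries and 2.05 in the control. Here the knockdown libraries also lay apart from each other (1.68 to 1.91 and 1.45 to 1.64). The LDB1 transcript was above LMO2, and LMO2 above TAL1, in all 3 libraries. Of TAL1's exon length, 14.8% is shared with the antisense transcript AL135960.1, to which 41, 56 and 45 reads were assigned (knockdown 1, knockdown 2, control).

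KLF1 and NFE2, which both act at globin genes, had the smallest fitted changes of the 10 as deposited. KLF1 (ENSG00000105610, chromosome 19, 12884422 to 12887199, minus strand) was at 61.7 and 55.8 FPKM in the knockdown libraries and at 56.5 FPKM in the control, with a fitted log2 fold change of 0.05 ± 0.17 (SE) that turned to −0.17 under quantile normalization. NFE2 (ENSG00000123405, chromosome 12, 54292111 to 54301121, minus strand) was at 52.9 and 58.1 FPKM in the knockdown libraries and at 57.6 FPKM in the control. Its fitted log2 fold change was −0.05 ± 0.17 (SE), and −0.28 after quantile normalization. For both genes the control lay between the knockdown libraries. RUNX1 (ENSG00000159216, chromosome 21, 34787801 to 36004667, minus strand), the lowest of the 10 per length although it had 720 to 890 reads over 15574 exon bases, was at 2.97 and 3.27 FPKM in the knockdown libraries and 3.38 FPKM in the control. Its fitted log2 fold change was −0.09 ± 0.19 (SE).

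By the closeness of log2(FPKM + 1) over the 3 libraries, the protein-coding genes most like GATA1, which had the highest level of the 10 and a fitted change within its error of that of LDB1, were S100A11 (Euclidean distance 0.107), IMPDH2 (0.178) and C6orf48 (0.217). S100A11 was at 106.8 and 118.0 FPKM in the knockdown libraries and 137.5 FPKM in the control. With 3 libraries such closeness is a description only.

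Among the paralogues listed here, the factor was in most families the main transcript of its kind, with the TAL1 family as the exception. GATA1 took 69.3% and 69.8% of the summed FPKM of the 6 GATA genes in the knockdown libraries and 75.3% in the control, and GATA2 30.0%, 29.4% and 23.8% (knockdown 1, knockdown 2, control). GATA3, GATA4, GATA5 and GATA6 were each below 1 FPKM. LYL1, a close relative of TAL1 that can stand in for it in early blood cells, was at 52.9 and 56.2 FPKM in the knockdown libraries and 57.2 FPKM in the control, above TAL1 in every library. LDB2 and LMO1 were at 0 in all 3 libraries, so that LDB1 was the LDB gene detected, and LMO2 took 76.5% to 79.6% of the LMO total with LMO4 next. KLF1 took 59.6% to 59.9% of the 7 KLF genes listed here, and other KLF genes were not summed. GFI1B took 90.7% to 93.5% of its pair with GFI1, and ZFPM1 55.8% to 62.6% of its pair with ZFPM2. NFE2 took 48.5% to 50.4% of the CNC and BACH genes, with NFE2L1 next at 29.1 and 34.7 FPKM in the knockdown libraries and 36.2 FPKM in the control.

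**Figure D4:**
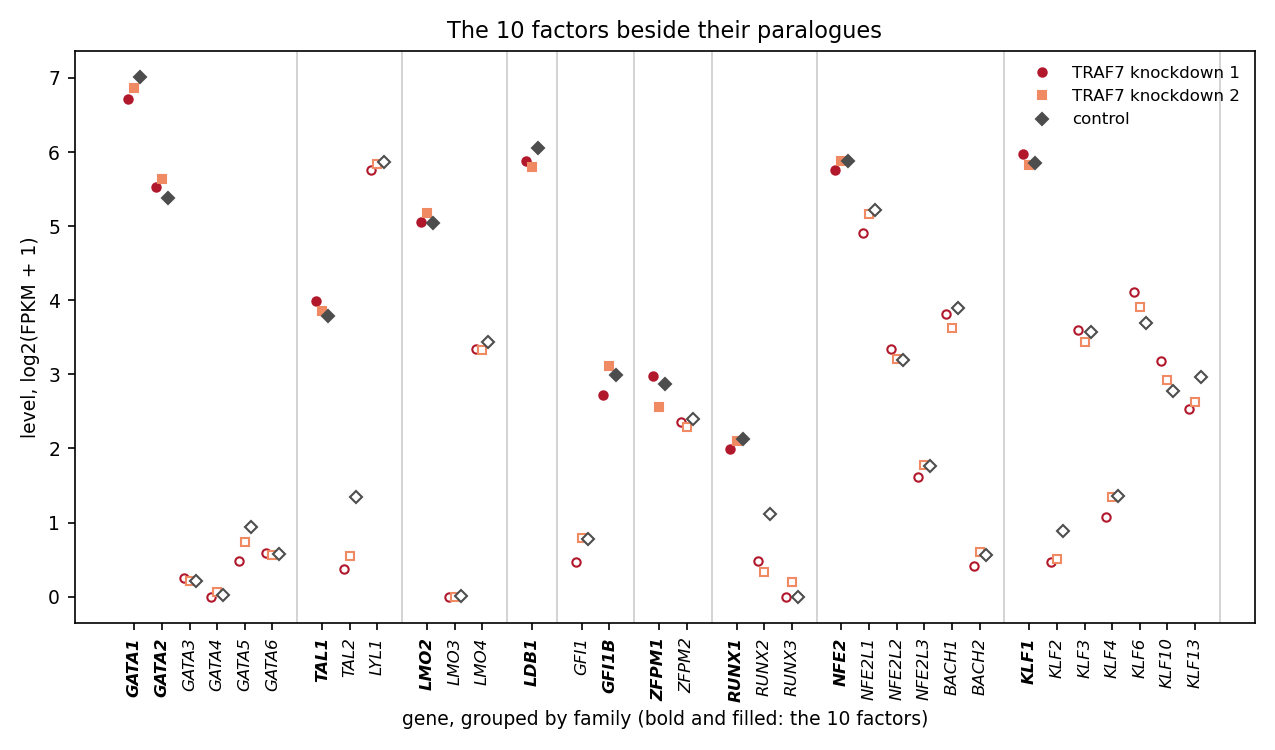
Level, log2(FPKM + 1), of the 10 factors (filled symbols, bold names) and their paralogues (open symbols) by family in TRAF7 knockdown 1, TRAF7 knockdown 2 and control; LMO1 and LDB2, at 0 throughout, are not drawn. LYL1 stands above TAL1 in all 3 libraries, and RUNX2 is higher in the control.

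The RUNX family held the only paralogue that passed a test. RUNX2, a regulator of bone and some blood cells, was at 0.392 FPKM in knockdown 1 (50 reads) and 0.255 FPKM in knockdown 2 (34 reads), against 1.16 FPKM in the control (160 reads). It averaged under 1 FPKM and so was not in the limma test, and fell by limma-voom (log2 fold change −1.86, adjusted p = 0.00927 over all genes). RUNX1 therefore took 88.3% and 89.0% of the RUNX total in the knockdown libraries and 74.5% in the control. Of 25 paralogues, 12 were tested by limma, with 0 called, 3 higher in both knockdown libraries and 7 lower, and a median log2 fold change of −0.07. The 4 with the lowest p were KLF13 (4.77 and 5.18 FPKM in the knockdown libraries, 6.82 FPKM in the control), KLF6 (16.34 and 14.02, against 11.97), KLF10 (8.11 and 6.61, against 5.83) and BACH1 (13.1 and 11.3, against 13.9).

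Most partners of the factors were detected and none passed. Of 18 DNA-binding and bridging partners 15 were tested, with 0 called by limma, 5 higher in both and 2 lower (median log2 fold change 0.03, and −0.045 after quantile normalization). The lowest p values were those of the E protein gene TCF3, a partner of TAL1 (46.4 and 35.1 FPKM in the knockdown libraries, 30.8 FPKM in the control), SSBP4, whose family protects LDB1 from turnover (64.0 and 51.8, against 46.8), ETV6 (1.82 and 1.73, against 2.29) and IKZF1 (5.74 and 6.86, against 5.53). The core-binding partner of RUNX1, CBFB, was at 37.3 and 29.2 FPKM in the knockdown libraries and 32.4 FPKM in the control, and MAFG, a small MAF partner of NFE2, at 30.5 and 26.5 FPKM, against 25.7 FPKM. Near absent were FLI1, with 0 and 6 reads in the knockdown libraries and 0 in the control, ERG, with 1 and 2 reads against 0, and BCL11A, the repressor of fetal globin, with 0 and 1 read against 0. Of 25 co-repressors and chromatin partners 23 were tested, with 0 called, 13 higher in both and 4 lower (median 0.14, and −0.017 after quantile normalization). RBBP7 was at 33.2 and 31.01 FPKM in the knockdown libraries and 24.9 FPKM in the control, GATAD2A at 44.7 and 32.6 against 30.2, CREBBP at 5.10 and 4.04 against 5.58, and SIN3A at 5.07 and 4.19 against 3.82.

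Among red cell genes, several of them known targets of these factors, some globin genes had larger fitted changes than any of the 10 factors. Of 40 red cell genes tested by limma 0 were called, 22 were higher in both knockdown libraries and 6 lower, and the median log2 fold change was 0.18, beside 42.5% of all genes higher and 30.8% lower. The median was 0.072 after quantile normalization, 0.075 under scaling to all assigned reads and 0.078 with knockdown 1 alone. By limma-voom 5 of 44 rose (HBA1, HBA2, HBG1, HBZ and TFRC) and 0 fell, against 0.206% and 0.659% of all genes. HBG2 was not among the 5. The embryonic globin gene HBZ was at 109.4 and 133.0 FPKM in the knockdown libraries and 65.7 FPKM in the control (limma-voom adjusted p = 0.0279), and the fetal globin gene HBG1 at 58.9 and 53.3 FPKM, against 26.4 FPKM (limma-voom adjusted p = 0.00338). HBA1 was at 90.2 and 74.8 FPKM in the knockdown libraries and 22.9 FPKM in the control, and HBA2 at 56.2 and 41.9 FPKM, against 18.5 FPKM. The adult beta-globin gene HBB had 7 and 40 reads in the knockdown libraries and 13 in the control. HBA1 and HBA2, and HBG1 and HBG2, are near-identical copies, so the split of reads within each pair is uncertain. The difference between the globin genes and the factors was not itself tested.

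Most megakaryocyte and platelet genes stood below the level required for testing. Of 35 megakaryocyte and platelet genes 12 averaged at least 1 FPKM and 9 were at 0 in all 3 libraries, among them PF4, GP9 and GP1BB, which encode platelet granule and surface proteins. ITGA2B, which encodes an integrin chain of platelets, was at 1.13 and 2.07 FPKM in the knockdown libraries, against 2.03 FPKM in the control. None of the 12 was called, 1 was higher in both and 5 lower, against 30.8% of all genes lower in both. The median log2 fold change was −0.14, and from −0.22 to −0.029 over the alternatives. The lowest p values were those of TBXA2R (4.55 and 4.60 FPKM in the knockdown libraries, 8.35 FPKM in the control), ANGPT1 (2.93 and 3.49, against 4.79), GP1BA (1.16 and 1.67, against 2.32) and NBEAL2 (21.6 and 18.7, against 24.6).

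Few myeloid and lymphoid markers reached the level required for testing. Those that did were lower in both knockdown libraries, as were 30.8% of all genes. Of 27 other haematopoietic transcription factors 14 were tested, with 0 called, 4 higher in both and 7 lower (median −0.01, or 0.26 among those averaging at least 5 FPKM). The list summed to 339.7 FPKM in knockdown 1 and 197.3 FPKM in knockdown 2, against 218.0 FPKM in the control. Knockdown 1 stood apart through EGR1, an immediate early gene, at 186.9 and 45.5 FPKM in knockdown 1 and 2 and 75.1 FPKM in the control. CEBPD was at 4.22 and 4.86 FPKM in the knockdown libraries and 6.36 FPKM in the control, the myeloid factor SPI1, which opposes GATA1, at 3.57 and 4.04 against 5.32, MITF at 4.38 and 4.23 against 3.22, and HHEX at 43.0 and 41.3 against 33.9. Of 14 myeloid markers 3 were tested (AZU1, LYZ and PRTN3), all lower in both, with MPO, ELANE and CD14 at or near 0; the list summed to 8.56 and 8.05 FPKM in the knockdown libraries and 15.5 FPKM in the control, and AZU1 fell by limma-voom (adjusted p = 0.0391). Of 11 lymphoid markers 2 were tested (CD3D and NKG7), both lower, with sums of 6.32 and 8.48 FPKM against 9.67 FPKM. The median log2 fold change of the markers tested was −0.61 (myeloid) and −0.49 (lymphoid). Over each list without the filter it was −0.19 (myeloid) and 0.022 (lymphoid). With a pseudocount of 5 it was −0.39 (myeloid) and −0.23 (lymphoid). By limma-voom it was −1.34 over 5 myeloid markers and −0.41 over 3 lymphoid markers. The 4 progenitor surface genes tested had a median log2 fold change of −0.49 (−0.74 with knockdown 1 alone, −0.23 with a pseudocount of 5, and −0.068 over the list without the filter), with 3 lower in both and 0 called, and the list summed to 55.4 and 47.7 FPKM against 63.8 FPKM; PTPRC was at 5.60 and 6.53 FPKM, against 9.54 FPKM. Of 10 stromal and epithelial markers 4 were tested (EPCAM, KRT8, KRT18 and KRT19), 3 higher in both and 1 lower, with sums of 183.5 and 178.4 FPKM against 167.9 FPKM. Reads on sense intronic genes came to 448.5 and 475.5 RPM (scaled to all assigned reads) in the knockdown libraries and 553.2 RPM in the control. The part of these differences in the values of the factors was not tested.

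**Figure D5:**
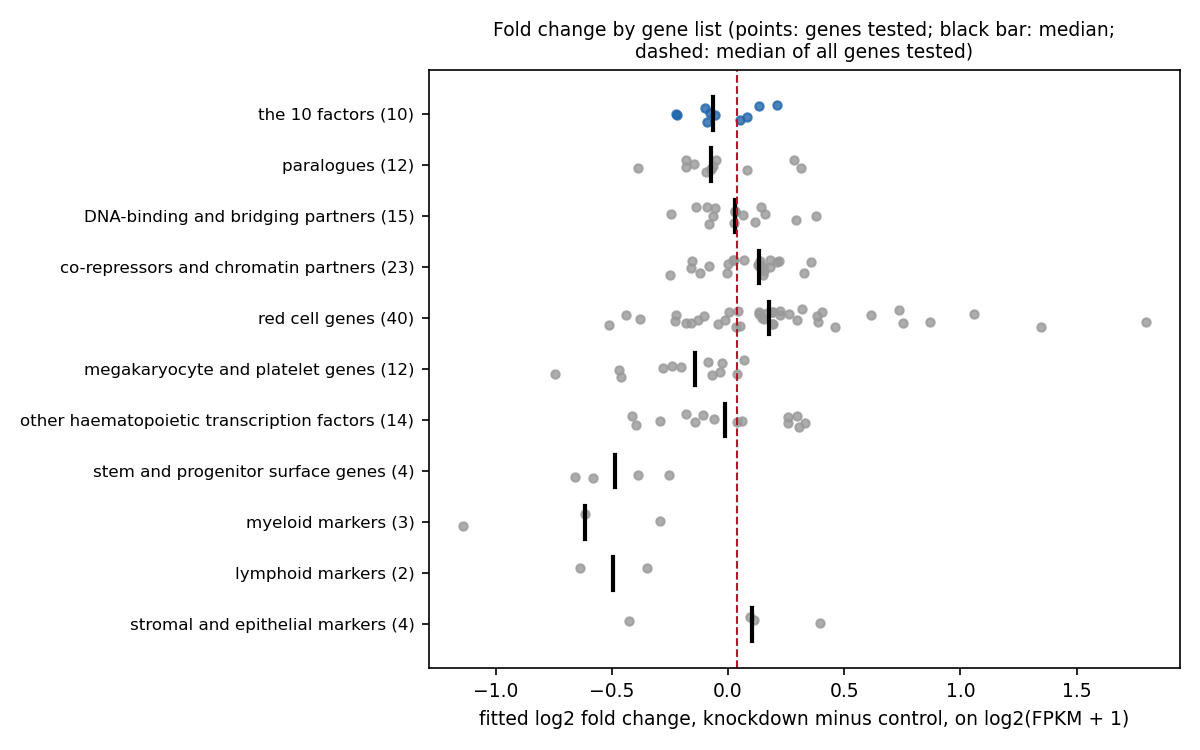
Fitted log2 fold change (knockdown minus control, log2(FPKM + 1) scale) of every gene tested in each list, with the number tested in brackets, the list's median as a black bar and the median of all genes tested, 0.04, as a dashed line. The 10 factors lie between −0.22 and 0.21, while red cell genes reach 1.80 (HBA1).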

How the data were processed

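The authors deposited 1 FPKM table per library, the unit being given per the file headers. Per the submitters' processing notes, hg19, BWA and Bowtie were used, without a stated role; what counted the reads is not given in the sources available. All 58735 identifiers matched GENCODE release 29 (GRCh38). Multiplied by exon length, 100% of the values above 0 fell within 0.05 of a whole number of reads, so whole reads were recovered; the coordinates and lengths printed are those of release 29. The read totals implied as divisors, over the geometric mean of the assigned reads, were 0.963, 1.006 and 1.045 (knockdown 1, knockdown 2, control). They equal median-of-ratios factors over all genes with reads in every library, so the deposited FPKM values already carry such a scaling. The median-of-ratios alternative took its factors again from only the genes that passed the filter, and so still moved the values.

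Across all genes, limma 3.58.1 in R 4.3.3 with an intensity trend was fitted on log2(FPKM + 1) for genes averaging at least 1 FPKM, and p-values were adjusted by Benjamini-Hochberg with a threshold of 0.05. Low genes have their changes understated on this scale. The limma and limma-voom fits were run on simulated reads in which 200 genes were changed by at least 2-fold. That checked the code only. It does not cover changes as small as those of the 10 factors, nor the real spread between libraries. Counting intervals are exact at 95% (Poisson for a level, conditional binomial for a ratio; log-normal over all gene pairs) and cover counting error only. Alternatives were pseudocounts of 0.1, 0.5 and 5, no filter, a filter of 5 FPKM, median-of-ratios, quantile and assigned-read scaling, no trend, limma-voom (at least 10 reads on average), protein-coding genes only, and each knockdown library alone. Genes were named by rule: all 10 factors, TRAF7, up to 4 genes with the lowest limma p in each list, and genes a result turns on; markers at or near 0, EGR1, RUNX2, RHAG, LYL1 and the globin genes beyond the rule were named after their values were seen. The factors, lists and tests were chosen with earlier results of these data known.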

Additional observations from a re-analysis of the deposited data

How the results depend on the processing

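With 1 control and 2 knockdown libraries, 0 of the 10 factors were called under any of the 11 fitted alternatives. Of 129 values of single factors under the alternatives, 121 kept their direction and 8 did not. KLF1 and LMO2 changed sign under quantile normalization (−0.17 and −0.092) and under scaling to all assigned reads (−0.051 and −0.022). With knockdown 2 alone and knockdown 1 alone, the log2 change was −0.018 and 0.12 for KLF1, 0.011 and −0.12 for NFE2, 0.12 and −0.27 for GFI1B, and −0.31 and 0.11 for ZFPM1. GATA1, LDB1, GATA2, TAL1 and RUNX1 kept their sign, though RUNX1 was absent from the fit that required 5 FPKM. The median of the factors was −0.11 after median-of-ratios rescaling, −0.16 after scaling to all assigned reads, and −0.0031 and −0.050 with knockdown 2 alone and knockdown 1 alone. The median of all genes reached 0.11 in the fit that required 5 FPKM and −0.05 after scaling to all assigned reads. Calls over all genes were 0 in each direction except in the fit that required 5 FPKM (3 higher), among protein-coding genes (6 higher, 7 lower) and by limma-voom (31 higher, 99 lower). Those settings called 1, 2 and 5 red cell genes higher, and limma-voom called 1 paralogue and 1 myeloid marker lower. The cause of these changes was not tested. No paired analysis was possible because the control has 1 library and no replicate number in the labels. Leaving out a knockdown library leaves 1 against 1, a value with no test.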
